A study of Mus musculus with 6 samples.

Results

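Nodal signalling is described here through 10 genes of the pathway in the anterior and posterior pieces of ETX-embryos, structures resembling embryos that form when mouse embryonic, trophoblast and extraembryonic endoderm stem cells are grown together. The 10 genes were chosen by name, and all 10 were found among the 12826 genes deposited. They form a set of 4 genes made of the ligand Nodal, its co-receptor Tdgf1 (Cripto) and the inhibitors Lefty1 and Lefty2, and a set of 5 genes made of the activin receptors Acvr1b, Acvr2a and Acvr2b and the transducers Smad2 and Smad4. Furin, a convertase that cuts the Nodal precursor, stands apart from both sets. The choice was made with the posterior and anterior values of these genes known, so their difference between domains is given as a description and carries no test.

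The structures were grown in IVC medium with no treatment from a reporter line in which the T (Brachyury) gene marks cells with GFP, and all 6 libraries share that line. The trophoblast part was removed, and the embryonic part was divided lengthwise into a GFP-negative piece, called prospective anterior, and a GFP-positive piece, called prospective posterior. Each piece is a mixture of the cells it held, not a sorted cell type. There are 3 anterior and 3 posterior Smart-seq2 libraries, 1 of each from the individual ETX-embryos A, B and C, and they are called anterior A, posterior A and so on. Where 3 values of a domain are listed, their order is embryo A, B, C. The labels give no age in days. Levels are in FPKM (sequenced fragments divided by transcript length and by library size), and differences are on the log2(FPKM + 1) scale on which the table was deposited, a scale that compresses the changes of low genes. In a piece of tissue, fewer cells of a type and less RNA per cell cannot be told apart.

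In the mouse embryo, Nodal is a secreted TGF-beta family ligand of the epiblast that is needed to form the primitive streak and to pattern the anterior-posterior axis. It signals through type I and type II activin receptors with Cripto as an obligate co-receptor, and the receptors phosphorylate Smad2 and Smad3, which enter the nucleus with Smad4 and act on DNA with partners such as Foxh1. Nodal, Lefty1 and Lefty2 are themselves targets of the pathway, so that the ligand feeds its own expression and that of its diffusible inhibitors, whereas the receptors and Smads are made broadly.

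Some libraries bear on everything that follows. Between 9335 and 11082 genes were above 0 in the anterior libraries and between 10260 and 12141 in the posterior ones. Relative depth was read from the steps of whole reads among low FPKM values and set to 1 in anterior A. It was 1.41 and 1.43 in the other anterior libraries and 2.19, 2.83 and 1.56 in the posterior libraries. On this estimate depth and domain cannot be told apart. The estimate is uncertain, since anterior B set directly against posterior B gave a step ratio of -0.004 in log2, that is near equal depth. Anterior A correlated with the other libraries at Spearman 0.50 to 0.61 across genes. Low values were not particular to it, since anterior C lay at 0.50 to 0.65 and posterior C at 0.50 to 0.69. T itself had anterior levels of 0, 0 and 42.5 FPKM and posterior levels of 5.03, 15.6 and 0 FPKM, so it followed the labels in embryos A and B and ran against them in embryo C. Values are therefore also given without embryo A and without embryo C. The median posterior minus anterior difference over the 10914 tested genes, those whose mean reached 1 FPKM, was 0.43 in log2, and member differences are to be read against that value.

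The start regions at hand differ in base composition between the receptor genes on 1 side and Nodal and Tdgf1 on the other. None was at hand for Lefty1, Lefty2, Smad2 or Smad4, so the sets as a whole are not compared. RefSeq start sites on GRCm38.p6 were at hand for 6 of the 10 members (Nodal, Tdgf1, Acvr1b, Acvr2a, Acvr2b and Furin), and the windows are the 250 bases before the start site. The Nodal window (chr10:61417722-61417971, plus strand), the Tdgf1 window (chr9:110946159-110946408, minus strand) and, as the receptor gene with the most CpG, the Acvr2a window (chr2:48813859-48814108, plus strand) are shown 5′ to 3′ with each CpG dinucleotide in capitals, because the contrast between the ligand and the receptor genes can be read directly from them.
Nodal: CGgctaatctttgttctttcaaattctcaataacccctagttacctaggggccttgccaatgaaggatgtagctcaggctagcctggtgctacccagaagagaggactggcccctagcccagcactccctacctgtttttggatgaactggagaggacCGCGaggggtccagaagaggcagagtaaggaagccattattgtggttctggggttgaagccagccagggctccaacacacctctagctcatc
Tdgf1: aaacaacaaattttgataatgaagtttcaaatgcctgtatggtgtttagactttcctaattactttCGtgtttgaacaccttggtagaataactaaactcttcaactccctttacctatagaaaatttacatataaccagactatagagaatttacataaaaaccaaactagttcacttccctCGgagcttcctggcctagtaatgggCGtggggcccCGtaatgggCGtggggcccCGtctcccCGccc
Acvr2a: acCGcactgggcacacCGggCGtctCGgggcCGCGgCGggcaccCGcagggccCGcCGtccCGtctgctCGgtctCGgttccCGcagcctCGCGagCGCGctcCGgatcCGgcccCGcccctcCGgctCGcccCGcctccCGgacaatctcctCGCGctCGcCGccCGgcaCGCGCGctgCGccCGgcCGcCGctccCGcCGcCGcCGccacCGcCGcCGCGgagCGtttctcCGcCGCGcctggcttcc
The Nodal window holds 3 CpG and 53.2% G or C, and the Tdgf1 window 7 CpG and 42% G or C. Over all 32851 windows of the table the medians are 6 CpG and 52.4%. The receptor windows hold 24 CpG in Acvr2b, 42 in Acvr1b and 49 in Acvr2a, with 72.8%, 78.8% and 82% G or C, and lie at percentiles 88.0 to 99.9 of all windows by CpG count. Furin has 2 start sites with 6 and 40 CpG.

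Motif letters were searched on both strands of the same windows. The core searched for, AATNNACA, leaves its middle bases free. It is called FOXH1-type here, but a match need not be a FOXH1 site. This core is present in 10.9% of all windows. Among the 7 member windows it was found in Tdgf1 alone, with 2 matches that begin 127 and 101 bases before the start site, and 1.12% of all windows hold 2 or more. The stretch that carries them (chr9:110946252-110946285, minus strand, matches in capitals) is printed to show that both matches have the same letters.
Tdgf1, FOXH1-type cores: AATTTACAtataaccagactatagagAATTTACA
The Smad box CAGAC, present in 42.2% of windows, had 1 match in Tdgf1, which lies between those cores, 1 each in Acvr2a and Acvr2b, 2 and 1 in the Furin windows, and none in Nodal and Acvr1b. The GC box GGGCGG, which overlaps CpG and is present in 32.7% of windows, had 1 match in Tdgf1, none in Nodal, 4, 2 and 3 in Acvr1b, Acvr2a and Acvr2b, and 0 and 2 in the Furin windows. A match is a run of letters and not evidence of binding, and Nodal enhancers further from the start site lie outside these windows.

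The ligand, its co-receptor and its inhibitors were at or near 0 in all 3 anterior libraries and present in all 3 posterior ones. Of the 12 anterior values of these 4 genes, 8 were listed at 0 and the highest was 0.32 in log2(FPKM + 1). Of the 12 posterior values none was at 0 and the lowest was 2.65. The anterior and posterior values did not overlap for any of the 4 genes. Of all tested genes, 12.3% had posterior values that all lay above the anterior ones, and 3.77% had the reverse. Since this contrast chose the genes, nothing is read from that count.

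**Figure D1:**
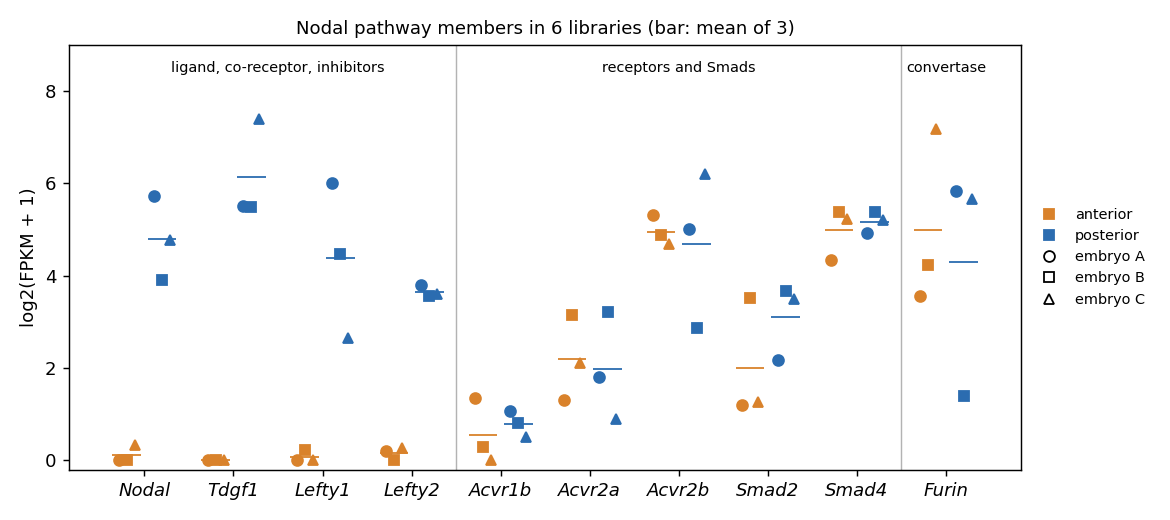
The vertical axis gives the level of each of the 10 genes in log2(FPKM + 1). Each point is a library, orange for anterior and blue for posterior pieces, with circles for embryo A, squares for B and triangles for C, and short bars mark the mean of 3. Nodal, Tdgf1, Lefty1 and Lefty2 lie at or below 0.32 in the anterior pieces and at or above 2.65 in the posterior ones, while the receptors, Smads and Furin overlap between the domains.

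Nodal (chromosome 10, 61417972 to 61425338, GRCm38), the ligand, had anterior levels of 0, 0 and 0.251 FPKM and posterior levels of 51.9, 14.0 and 26.3 FPKM. Posterior A was the highest and posterior B the lowest, and every posterior value lay far above the single anterior value over 0. The mean difference was 4.69 ± 0.93 in log2(FPKM + 1) (SD, n = 3 embryos), 4.18 without embryo A and 4.82 without embryo C.

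Tdgf1 (chromosome 9, 110939603 to 110946158) encodes Cripto, the membrane-anchored co-receptor without which Nodal does not engage its receptors. No anterior library listed it above 0, and its posterior levels were 44.6, 44.0 and 166 FPKM. The A and B posterior pieces were nearly equal, and posterior C was the highest library of any of the 4 genes. The mean difference was 6.13 ± 1.09 in log2(FPKM + 1) (SD, n = 3), 6.44 without embryo A and 5.50 without embryo C. Of its 50-base words, 8.86% also occur in the pseudogene Tdgf1-ps1, so reads from those words could be split in the authors' counting.

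Lefty1 (chromosome 1, 180935022 to 180938400), a secreted inhibitor of Nodal, had anterior levels of 0, 0.172 and 0 FPKM and posterior levels of 63.3, 21.1 and 5.28 FPKM. The posterior values spread 12.0-fold, the widest of the 4 genes, with embryo A highest and embryo C lowest. The mean difference was 4.30 ± 1.68 in log2(FPKM + 1) (SD, n = 3), 3.44 without embryo A and 5.12 without embryo C. Lefty1 is also known from the anterior visceral endoderm, an extraembryonic signalling centre.

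Lefty2 (chromosome 1, 180893108 to 180899103), the inhibitor known from the streak and nascent mesoderm, had anterior levels of 0.150, 0 and 0.210 FPKM and posterior levels of 12.9, 10.8 and 11.2 FPKM. Its posterior values spread 1.19-fold, the narrowest of the 4 genes, against 3.70-fold for Nodal and 3.78-fold for Tdgf1. The mean difference was 3.50 ± 0.15 in log2(FPKM + 1) (SD, n = 3), 3.45 without embryo A and 3.58 without embryo C. Lefty1 and Lefty2 are near copies. In GENCODE M21 transcripts 17.9% of the 50-base words of Lefty1 occur in Lefty2 and 12.0% of those of Lefty2 in other genes, nearly all in Lefty1, so the split between them is uncertain for those parts.

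The order of the 4 genes in the posterior pieces changed from embryo to embryo. By mean level in log2(FPKM + 1) it was Tdgf1 at 6.13 ± 1.09, Nodal at 4.80 ± 0.91, Lefty1 at 4.37 ± 1.68 and Lefty2 at 3.66 ± 0.13 (SD, n = 3), and no neighbours in that order differed beyond their spread. Relative to Nodal, Lefty1 differed by 0.28, 0.56 and -2.12 in posterior A, B and C, so it was above Nodal in A and B and below it in C. Lefty2 was below Nodal in all 3, by -1.93, -0.34 and -1.17. Tdgf1 was level with Nodal in posterior A (-0.21) and above it in B and C (1.58 and 2.62). The ratio of inhibitor to ligand and of co-receptor to ligand was thus not constant between posterior pieces.

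T and the ligand set parted in embryo C. In the library labelled anterior C, with T at 42.5 FPKM, Nodal was at 0.251 FPKM and Tdgf1 was listed at 0. Posterior C, where T was listed at 0, had Nodal at 26.3 FPKM, Tdgf1 at 166 FPKM and Lefty2 at 11.2 FPKM. The mean of the 4 differences was 5.21, 4.30 and 4.45 in log2(FPKM + 1) in embryos A, B and C. The 4 genes were chosen with these values known, so their likeness says nothing about the labels of embryo C.

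The low anterior values were compared with those of genes of like level. Of 1464 other tested genes whose posterior mean lay within 0.5 of that of Nodal, 0.683% were as low as Nodal or lower in all 3 anterior libraries, and 9.15%, 1.16% and 5.87% were listed at 0 in the respective anterior libraries. For Tdgf1 0.238% of 842 genes, for Lefty1 0.741% of 1620 genes and for Lefty2 1.48% of 1822 genes were as low in all 3. These shares describe the table, and the members were chosen for this pattern.

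Acvr2a, Acvr2b, Smad2 and Smad4 were present in both domains, while Acvr1b was at 1.54 FPKM or less in every library. The anterior and posterior values of each of the 5 receptor and Smad genes overlapped. The mean of their 5 differences was 0.30, -0.26 and 0.61 in log2(FPKM + 1) in embryos A, B and C. Set against them, the ligand set was higher in its posterior minus anterior difference by 4.91, 4.56 and 3.85 in embryos A, B and C, a mean of 4.44 ± 0.54 (SD, n = 3). That value moved to 7.06 with a pseudocount of 0.1 FPKM and to 2.55 with one of 5, since a pseudocount acts most on genes near 0.

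**Figure D2:**
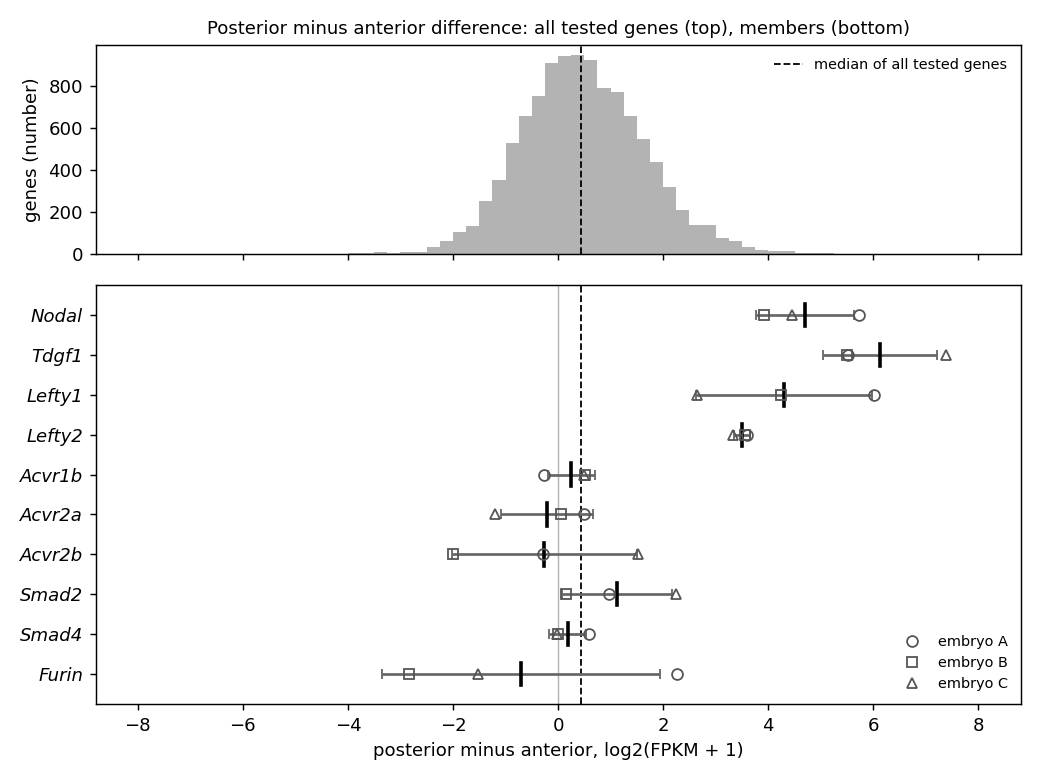
Posterior minus anterior difference in log2(FPKM + 1) on the horizontal axis, as a histogram of the 10914 tested genes (top) and for each member (bottom), with open symbols for embryos A, B and C, a thick tick at the mean and a bar of 1 SD over 3 embryos. The ligand set lies at means of 3.50 to 6.13, and the receptors, Smads and Furin lie at means of -0.70 to 1.12 on either side of the dashed median of all tested genes at 0.43.

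Acvr1b, the type I activin receptor (ALK4) that phosphorylates the Smads, was the lowest of the 10 genes. It had anterior levels of 1.54, 0.231 and 0 FPKM and posterior levels of 1.11, 0.748 and 0.417 FPKM, and only the 2 libraries of embryo A reached 1 FPKM. Its mean of 0.675 FPKM kept it out of the fit, and at that level its direction is not readable: the difference of 0.25 ± 0.45 (SD, n = 3) was 0.50 without embryo A and 0.12 without B or without C, and turned to -0.38 after quantile normalization and to -0.24 after centring each library on its median gene.

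The type II receptors Acvr2a and Acvr2b, which bind the ligand first and activate the type I receptor, followed different patterns. Acvr2a had anterior levels of 1.48, 7.89 and 3.29 FPKM and posterior levels of 2.50, 8.27 and 0.871 FPKM. Both pieces of embryo B were the highest, whatever the domain, and the difference was -0.21 ± 0.88 in log2(FPKM + 1) (SD, n = 3), with -0.57 without embryo A, -0.35 without B and 0.28 without C. Acvr2a overlaps Orc4 on the other strand, with 6.98% of its 50-base words shared, and Smart-seq2 does not mark strand. Acvr2b had anterior levels of 38.6, 28.3 and 24.6 FPKM and posterior levels of 31.2, 6.30 and 72.4 FPKM. The anterior values lay close together, and the posterior ones held both the lowest and the highest of the 6. The difference was -0.26 ± 1.76 (SD, n = 3), with -0.24 without embryo A, 0.61 without B and -1.15 without C. Acvr2b was above Acvr2a in 5 of 6 libraries, by 1.72 to 5.29 in log2(FPKM + 1), and slightly below it in posterior B (-0.34).

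Smad2, which carries the signal from the receptor, had anterior levels of 1.29, 10.5 and 1.39 FPKM and posterior levels of 3.50, 11.8 and 10.3 FPKM. It was higher in the posterior piece of each embryo, hardly so in B, and the domains overlapped because anterior B matched the posterior libraries. The difference was 1.12 ± 1.05 in log2(FPKM + 1) (SD, n = 3), 1.20 without embryo A and 0.56 without embryo C. Smad4, the shared partner of receptor-activated Smads, was the steadiest of the 10 genes, with anterior levels of 19.3, 40.8 and 36.5 FPKM and posterior levels of 29.4, 40.5 and 35.7 FPKM. Its values spanned 1.05 in log2(FPKM + 1), with anterior A lowest. The difference of 0.18 ± 0.35 (SD, n = 3) lay within the spread and turned to -0.02 without embryo A (0.28 without B, 0.29 without C) and to -0.31 after centring on the median gene. Smad4 was above Smad2 in 6 of 6 libraries, by 1.70 to 3.97.

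Furin (chromosome 7, 80388585 to 80405436), which cuts the Nodal precursor into its mature form, had anterior levels of 10.9, 17.9 and 143 FPKM and posterior levels of 55.6, 1.63 and 49.3 FPKM. Its values spanned 5.77 in log2(FPKM + 1), against 5.73 for Nodal, but without a common direction: it was higher in the posterior piece of embryo A by 2.25 and lower in those of B and C, by -2.84 and -1.52. The mean was -0.70 ± 2.64 (SD, n = 3), with -2.18 without embryo A, 0.37 without B and -0.29 without C. Furin shares 1.76% of its 50-base words with other genes, among them the antisense gene Gm44851 that overlaps it.

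The contrast among embryos was not used to choose the members, so they were tested on it. With limma's F test no gene of the table passed the adjusted threshold of 0.05 (percent called 0), and 302 of 10914 genes (2.77%) had an unadjusted p under 0.05. None of the 9 members in the fit was among them. The smallest value was that of Furin, with an unadjusted p of 0.0554 and a limma adjusted p of 0.996. For Furin this depended on the setting: its unadjusted p was under 0.05 in 6 of 10 alternatives, ranging from 0.00105 without embryo A to 0.195 without embryo B, and its lowest limma adjusted p was 0.211. The other 8 members stayed above 0.05 in all 10. Lefty2, with an unadjusted p of 0.981, lay at the other end. For Acvr2a and Smad2, high in both libraries of embryo B, the unadjusted p was 0.326 and 0.325. With 2 residual degrees of freedom the test allows little to be detected, and these values do not show that the embryos were alike.

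The other genes of the pathway were taken from lists of 54 genes in 5 roles, not counting T. Of the 54, 46 are in the table and 42 were counted in the fit. For several of them, such as Mixl1, Wnt3, Eomes and Fgf8, higher posterior values were already known from earlier results of these data. With limma, no gene of the 42, and none of the 10914, passed the adjusted threshold of 0.05 in either direction (percent called 0 in each). Unadjusted p-values under 0.05 were found for 9 of the 42, all higher in the posterior domain, where the whole table had 7.24% in that direction and 0.788% in the other. Among them were Mixl1, Wnt3, Eomes, Nanog and Fgf8 of the targets and Foxh1, Smad7 and Skil of the transducers and cofactors. Of the 42, 32 had a higher posterior mean and the median difference was 0.63, against 64.9% of all tested genes and a median of 0.43. In 10 of the 42 all posterior values lay above the anterior ones, against 12.3% of all tested genes. Without embryo B the count of 9 at an unadjusted p under 0.05 was 5, and Nanog, Foxh1 and Skil were among those no longer in it.

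**Figure D3:**
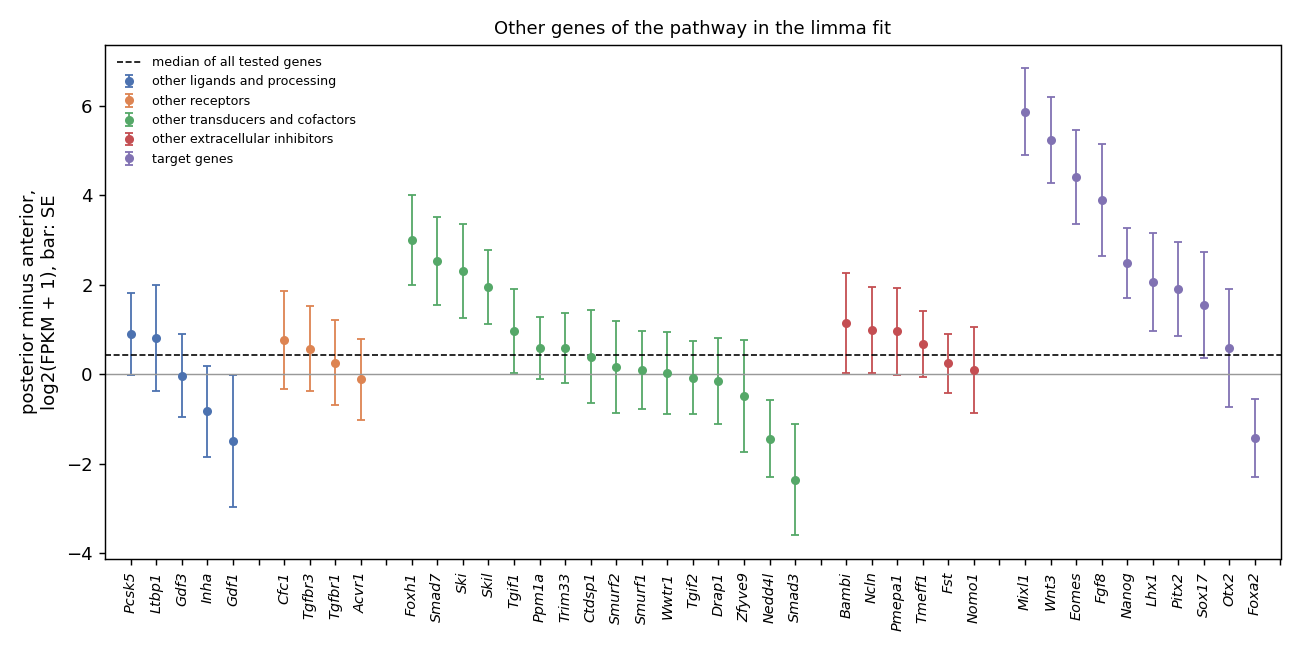
Posterior minus anterior difference with its limma standard error in log2(FPKM + 1) on the vertical axis for the other pathway genes in the fit, 1 of the 42 left out, grouped by role and ordered within each group, with the median of all tested genes (0.43) dashed. Targets reach the highest differences, up to 5.87 for Mixl1, and Smad3 the lowest at -2.36, while receptors lie between -0.12 and 0.76.

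Of the 17 other transducers and cofactors in the fit, 12 had a higher posterior mean and 4 an unadjusted p under 0.05, all higher in the posterior domain. Foxh1, the DNA-binding partner that takes Smads to Nodal targets, had anterior values of 0.75, 0 and 2.89 and posterior values of 4.98, 3.08 and 4.60 in log2(FPKM + 1), without overlap (difference 3.01 ± 1.00 SE, limma adjusted p 0.561). Smad7, a feedback inhibitor that blocks the receptors, had anterior values of 1.51, 3.52 and 0.74 and posterior values of 4.78, 4.45 and 4.11, again without overlap (2.52 ± 0.98 SE, limma adjusted p 0.604). Skil, a nuclear co-repressor of Smads, had anterior values of 4.10, 6.33 and 8.39 and posterior values of 8.42, 7.65 and 8.60. It was higher in the posterior piece of 3 of 3 embryos, by little in C.

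Smad3, the second receptor-activated Smad of the branch, had anterior values of 4.57, 1.44 and 5.15 and posterior values of 1.45, 2.38 and 0.24. It was lower in the posterior piece of embryos A and C and higher in that of B, and the difference of -2.36 ± 1.24 (SE) did not pass (limma adjusted p 0.639). Smad2 and Smad3 therefore changed rank: Smad3 was above Smad2 by 3.37 and 3.89 in anterior A and C and below it in the other 4 libraries, by -0.72 to -3.26. Nedd4l, a ubiquitin ligase for activated Smads, was chosen after its values were seen as the 1 gene of the 42 with all anterior values above the posterior ones, at 2.68, 1.97 and 0.92 against 0.89, 0.36 and 0.

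Other ligands and receptors showed no common direction. Gdf3, a Nodal-related ligand of the epiblast, was low and flat, between 1.32 and 2.30 in all 6 libraries. Gdf1, which partners with Nodal, was high in anterior B alone (6.49), at 1.89 and 0.12 in posterior A and C, and at 0 in the other 3 libraries. Inha was likewise highest in anterior B (3.73). Pcsk5, a convertase, was present in embryo C, at 1.72 in the anterior and 4.31 in the posterior library, and at or below 0.10 elsewhere (F test among embryos, unadjusted p 0.0384, limma adjusted p 0.996). Ltbp1, which binds latent TGF-beta, had anterior values of 2.41, 2.51 and 0 and posterior values of 1.89, 1.62 and 3.84.

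Cfc1 (Cryptic), the other co-receptor of the Cripto family, differed from Tdgf1. It had anterior values of 0, 3.14 and 6.46 and posterior values of 2.72, 4.75 and 4.42. Cfc1 was thus above Tdgf1 in anterior B and C, where Tdgf1 was listed at 0, and below it in all 3 posterior pieces by -0.74 to -2.97. Its posterior minus anterior difference of 0.76 ± 1.09 (SE) did not pass (limma adjusted p 0.856), and among embryos its unadjusted p was 0.0370 (limma adjusted p 0.996). Tgfbr1 had anterior values of 0.25, 3.58 and 0.52 and posterior values of 1.78, 3.30 and 0.06, high in both pieces of embryo B as Acvr2a was. Acvr1, a type I receptor of the BMP branch, had anterior values of 2.19, 2.70 and 0 and posterior values of 1.96, 2.58 and 0. Tgfbr3 had anterior values of 1.90, 4.18 and 3.70 and posterior values of 4.02, 3.65 and 3.82.

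Inhibitors other than Lefty1 and Lefty2 were not restricted to 1 domain, and none of the 6 in the fit had an unadjusted p under 0.05. Bambi, a pseudoreceptor, had anterior values of 2.21, 1.99 and 0.53 and posterior values of 1.66, 2.38 and 4.13. Pmepa1, a feedback gene that sequesters Smads, had anterior values of 4.21, 4.27 and 1.31 and posterior values of 4.94, 3.59 and 4.11. Tmeff1, which binds Cripto, had anterior values of 4.52, 6.96 and 7.47 and posterior values of 6.69, 7.48 and 6.81, and its values overlapped. Ncln, an endoplasmic reticulum protein linked to Nodal inhibition, had anterior values of 1.66, 0.92 and 3.90 and posterior values of 3.13, 1.48 and 4.82. Cer1 is not analysed here.

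Of the 10 known targets of Nodal and Activin in the fit, 9 had a higher posterior mean, with a median difference of 2.27, and the posterior values of 7 lay above all anterior ones. Over all tested genes these were 64.9%, a median of 0.43 and 12.3%, and several of the targets were listed with their posterior values known. T, also on the target list, was left out of these counts because its reporter defined the pieces. Its anterior levels of 0, 0 and 42.5 FPKM overlapped its posterior levels of 5.03, 15.6 and 0 FPKM. Mixl1, a streak homeobox gene, had anterior values of 0 throughout and posterior values of 5.64, 6.99 and 4.97 (5.87 ± 0.97 SE, limma adjusted p 0.282). Without embryo A it passed, with a limma adjusted p of 0.0225 from 1 residual degree of freedom, against 0.0892 to 0.775 under the other alternatives. In the fit without embryo A limma took the variance of every gene from the mean-variance trend alone, and the pass rests on that. Eomes, a T-box gene that Nodal induces, had anterior values of 0, 0 and 1.25 and posterior values of 5.55, 5.21 and 3.72. Wnt3, which acts with Nodal in the streak, had anterior values of 0, 2.13 and 0.92 and posterior values of 6.84, 5.76 and 6.15. Nanog, a pluripotency gene that Activin and Nodal sustain, had anterior values of 4.0, 3.12 and 3.58 and posterior values of 6.81, 6.15 and 5.21, so its anterior level was well above 0, unlike that of the ligand set. Foxa2, chosen after its values were seen as the 1 target with a lower posterior mean, had anterior values of 6.54, 6.58 and 4.22 and posterior values of 3.76, 4.49 and 4.82.

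Epiblast markers differed between the domains in the same direction as the ligand set, but were not near 0 in the anterior pieces. Their mean in log2(FPKM + 1) was 1.71, 2.55 and 3.18 for anterior and 4.85, 3.99 and 4.38 for posterior pieces, without overlap. Their summed levels in FPKM did overlap, and Otx2 alone gave 156 of the 369 FPKM in anterior C. The mean of the 4 ligand-set genes was 0.05, 0.06 and 0.15 for anterior and 5.26, 4.36 and 4.60 for posterior pieces. All 13 epiblast markers are in the table, and their summed level was 60.4 to 369 FPKM in the anterior and 308 to 539 FPKM in the posterior libraries, and 7, 8 and 8 anterior against 13, 13 and 12 posterior markers exceeded 1 FPKM. Fgf4 and Dppa4 were at 0 in all 3 anterior libraries. Anterior C, with the highest epiblast sum of the anterior libraries, held Sox2 at 5.43, Otx2 at 7.29, Dnmt3b at 5.92 and Pou5f1 at 3.64 in log2(FPKM + 1), which lie within the posterior range for Sox2, Dnmt3b and Pou5f1 and above it for Otx2, while Nodal stood at 0.32 and Tdgf1 at 0. These 4 were named after their values were seen. Of all 13 epiblast markers, anterior C had 8 below the posterior range, 4 within it and 1 above it, against 8, 5 and 0 in anterior B and 11, 2 and 0 in anterior A. Those below it in anterior C included Nanog at 3.58 (posterior 5.21 to 6.81), Slc7a3 at 0.63 (3.07 to 5.35) and L1td1 at 0.23 (3.22 to 4.61). Sox2 was at 0.81 in anterior A and in anterior B.

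Extraembryonic markers were uneven among the anterior libraries. The 14 visceral endoderm markers in the table (of 19) summed to 979.7 and 1457 FPKM in anterior A and B, to 125 in anterior C and to 233 to 365 in the posterior libraries. In anterior C 10 of the 14 were at 0, Ttr and Rbp4 among them. The 13 parietal endoderm and XEN markers summed to 1259, 2074 and 350.2 FPKM on the anterior side and to 428 to 932 FPKM in the posterior libraries. The 13 trophoblast markers included 12 in the table, at 305 to 461 FPKM in the anterior and 275 to 668 FPKM in the posterior libraries, with Elf5 at 0 in all 3 anterior libraries and in posterior C. The 9 anterior visceral endoderm markers in the table (of 10) summed to 28.3, 63.7 and 165 FPKM on the anterior side and to 57.0 to 78.0 FPKM in the posterior libraries, and Lhx1 and Gsc were at 0 in all 3 anterior ones. In anterior C 6 of these 9 were at 0, and Otx2, which is also on the epiblast list, gave 156 of the 165 FPKM. The 11 streak and mesoderm markers in the table (of 15), which share genes with the target list, summed to 19.9 to 110.0 FPKM in the anterior and 266 to 280.3 FPKM in the posterior libraries. The 13 genes of general cell machinery summed to 8586 FPKM in anterior A, the lowest, and to 9751 to 19513 FPKM in the other libraries. Visceral endoderm sums thus differed between anterior C and the other anterior libraries. Streak and mesoderm sums and the epiblast means were lower in all 3 anterior libraries than in any posterior one. The ligand-set genes were chosen with their anterior values known, and the part of cell makeup in their difference was not tested.

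**Figure D4:**
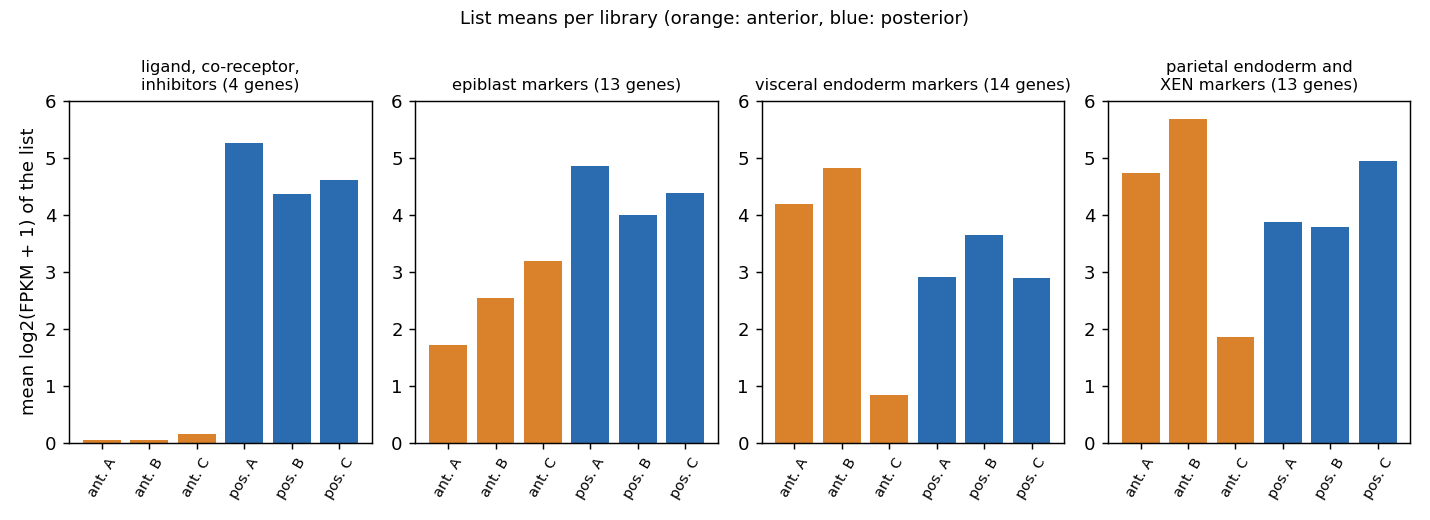
Mean level of each list in log2(FPKM + 1) on the vertical axis, 1 bar per library, for the 4 ligand-set genes, the epiblast, the visceral endoderm and the parietal endoderm and XEN markers, with anterior libraries orange and posterior ones blue. The ligand set is near 0 in all anterior bars. Every anterior epiblast bar is lower than every posterior one. The endoderm lists are high in anterior A and B and lowest in anterior C.

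The genes most like Nodal across the 6 libraries were found by Pearson correlation of log2(FPKM + 1) over the 10913 other tested genes, as a description. The 5 closest that are not members were Apbb3, Pcdh18, Crb3, Lrrc8d and Rhob, with r of 0.998, 0.996, 0.994, 0.994 and 0.994. Crb3, a polarity gene, had anterior values of 0.24, 0 and 0.32 and posterior values of 5.12, 3.34 and 4.85. An r of at least 0.9 to Nodal was reached by 235 genes (2.15%). Domain and estimated depth cannot be told apart over the 6 libraries. Lefty2 ranked 23 with r = 0.98, Tdgf1 ranked 85 with r = 0.95 and Lefty1 ranked 137 with r = 0.93. Smad2 reached r = 0.41, Smad4 r = 0.18, and Acvr2b, Furin and Acvr2a lay at 0.00, -0.01 and -0.22.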

How the data were processed

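RNA was measured in 6 Smart-seq2 libraries. Mapping was to the mouse genome in Ensembl release 38.77 and counting was done by HTSeq-count, per the labels' protocols. TopHat2 2.0.4, Cufflinks 2.0.2 and build mm10 are named in the submitters' processing notes, and the step that produced the values is not stated there. The values that the authors deposited are log2 values, log2(FPKM + 1). This scale was read from the table itself, since undoing it left numbers of no more than 6 significant digits for 99.1% to 99.5% of the values over 3 in each library. Absolute depth is not given. Relative depth came from whole-read steps among values under 1 FPKM (tolerance 0.01 in log2), where 12 of 15 pairs of libraries met 1 solution within 0.05. The pairs that did not were anterior B with posterior A (-0.365 in log2), anterior B with posterior B (-0.004) and posterior A with posterior C (0.508).

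The members and gene lists were chosen with earlier results of these data known. The 10914 genes whose mean reached 1 FPKM were fitted in R 4.3.3 by limma 3.58.1 on the deposited values, with domain and, since both pieces come from 1 individual, embryo as terms, a mean-variance trend and Benjamini-Hochberg adjustment of two-sided p-values. The embryo contrast was limma's F test in that fit. Deviations of the paired pieces correlated at -0.07 (A), 0.04 (B) and -0.03 (C), and the pairing is taken from the dissection. The fit was also run on simulated data, with gene means raised, the larger gene spreads capped and large changes planted. That run does not show how the fit performs on genes near 0. Members were named in full, and of each other list up to 4 genes with the smallest p, plus Smad3, Foxh1, Gdf3, Cer1 and Eomes. The values of 1 gene that this rule names are not reported here, and the counts of its list include it. Fgf8, Nedd4l, Foxa2 and the marker genes were named after their values were seen. Loci are from GENCODE M21 and start sites from RefSeq, both on GRCm38. Other pseudocounts, scalings, filters and left-out libraries were tried.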

Additional observations from a re-analysis of the deposited data

How the results depend on the processing

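The ligand-set genes kept their direction under all 8 alternatives computed for them (pseudocounts, scalings, left-out libraries), and Smad2 did too. For the ligand set this was largely set by the choice of genes, whose posterior values all lay above their anterior ones. Nothing is read from it. Acvr1b, Acvr2a, Acvr2b, Smad4 and Furin changed sign under 1 to 4 of the 8. The ligand set less the receptor and Smad set was 7.06 with a pseudocount of 0.1 FPKM, 2.55 with a pseudocount of 5, and 4.20 to 4.74 when each embryo was left out. With no replicate block, limma called 0 genes between domains and 9 pathway genes had an unadjusted p under 0.05. Of these, 8 were shared with the paired fit, Skil was lost and Ski gained, and no adjusted call changed. When each embryo was left out the number of genes called between domains was 0 to 25 (25 without A, 8 without C), and the number called among embryos was 2 to 34 (34 without A). The counts without A rest on a fit in which limma took all gene variances from the trend alone. Pathway genes at an unadjusted p under 0.05 numbered 5 to 8 higher in the posterior and 1 in each case higher in the anterior domain. Genes called among embryos were 3 with no filter, 3 after quantile normalization, 3 after centring and 4 without anterior A. Pathway genes at an unadjusted p under 0.05 and higher in the anterior domain were 2 after quantile normalization and 2 after centring, namely Smad3 and Nedd4l in both. Centring moved the median of all genes to -0.06 and the whole-table split at an unadjusted p under 0.05 from 790 higher and 86 lower in the posterior domain (90.2% higher) to 429 and 297 (59.1%), and quantile normalization moved it to 538 and 282 (65.6%). The cause of these changes was not tested. The estimated relative depth was lower in the anterior libraries, most so in anterior A, and by little in embryo C (1.43 against 1.56). A low depth limits what a value of 0 can show.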
